A study of Mus musculus with 26 samples.

Results

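The entries described here are the whole tRNA entries of a small RNA table of the mouse hippocampus, for every amino acid other than glycine and glutamate. They were chosen by name alone: rows of the tRNA annotation that stand for a whole tRNA and not for its 5′ end, 3′ end or CCA end. Of 1360 entries in the table, 103 were whole tRNA entries, 12 of these belonged to glycine or glutamate, and the remaining 91 are the members. They covered 50 tRNA names, among them Sup-TTA and an undetermined name (Undet), which stand for no amino acid. The other names each join an amino acid with its anticodon and cover 19 amino acids, selenocysteine (SeC) included. Of the members, 50 had a match to the genome (called matched below) and 41 held reads that fit the tRNA annotation but not the genome (called unmatched).

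All 26 libraries came from male C57BL/6J mice aged between 2 and 3 months, with both hemispheres used, and the labels name no transgene or deletion. Ventral hippocampus (vHC) gave 8 libraries from home cage controls and 6 from mice collected 45 mins after the start of a swim of 6 min in water at 18 °C. Dorsal hippocampus (dHC) gave 6 control and 6 swim libraries, and each library also belonged to 1 of 3 blocks, of 10, 8 and 8 libraries. The labels give the block as a date, the methods state that libraries were prepared in 3 batches, and neither says that the blocks are those batches. Each block held libraries of all 4 groups, with 4 vHC controls in block 1 and 2 libraries in every other cell of the design. The labels do not say which vHC and dHC libraries came from the same mouse, so p-values measure the spread between libraries.

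Transfer RNAs carry amino acids to the ribosome and read the codons of mRNA with the 3 bases of their anticodon. tRNAs that carry the same amino acid with different anticodons are called isoacceptors. tRNA is cut into shorter fragments in many cells, and reads of this assay were shorter than a tRNA, so a whole tRNA entry counts fragments from any stretch of the molecule and not intact tRNA. Many tRNA bases are chemically modified after transcription, the CCA at the 3′ end is added by an enzyme, and tRNAs such as tyrosine GTA and isoleucine TAT are transcribed with an intron.

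To show what an entry stands for, tRNA genes of 8 member names are printed below from RefSeq and GENCODE vM21 sequence (GRCm38), 5′ to 3′ on the strand of the tRNA, as DNA, with the anticodon in capitals. They are the genes that could be read from those tables. They include an abundant member (Val-CAC), isoacceptor pairs of arginine and serine, and genes of intron-bearing names (Arg-TCT and Ile-TAT).
Val-CAC (n-TVcac9, chr13:23446142-23446214, minus strand): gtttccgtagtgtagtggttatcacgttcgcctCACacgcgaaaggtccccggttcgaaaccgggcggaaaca
Ala-AGC (n-TAagc16, chr13:21222586-21222657, plus strand): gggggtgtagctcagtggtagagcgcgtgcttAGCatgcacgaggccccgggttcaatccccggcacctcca
Thr-AGT (n-TTagt9, chr7:35234770-35234843, minus strand): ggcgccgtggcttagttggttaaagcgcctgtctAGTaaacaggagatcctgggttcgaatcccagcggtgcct
Arg-TCG (n-TRtcg5, chr7:79466419-79466491, plus strand): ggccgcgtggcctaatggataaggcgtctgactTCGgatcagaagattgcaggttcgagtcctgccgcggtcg
Arg-TCT (n-TRtct2, chr3:122292948-122293032, minus strand): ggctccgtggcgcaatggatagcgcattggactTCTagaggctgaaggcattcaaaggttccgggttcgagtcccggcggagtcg
Ser-AGA (n-TSaga9, chr4:10874064-10874145, plus strand): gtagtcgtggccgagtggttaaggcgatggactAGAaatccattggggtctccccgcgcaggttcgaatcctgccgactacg
Ser-TGA (n-TStga1, chr13:23518146-23518227, plus strand): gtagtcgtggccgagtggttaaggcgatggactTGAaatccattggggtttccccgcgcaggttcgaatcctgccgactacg
Ile-TAT (n-TItat14, chr13:21896938-21897031, minus strand): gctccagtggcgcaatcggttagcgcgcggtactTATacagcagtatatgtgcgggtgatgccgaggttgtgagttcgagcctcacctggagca

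The 2 serine genes were identical at 80 of 82 positions, with 1 of the 2 differences in the anticodon and none in the first 33 bases. Reads from the 5′ part of these genes therefore fit both names, and the levels of such isoacceptors are uncertain, since the rule that divides shared reads between entries is not given in the sources used here. In GENCODE, n-TRtcg5 lies in an exon of Gm10616, n-TRtct2 in an exon of the noncoding transcript Gm17494, and n-TItat14 inside the microRNA gene Mir1983. Both serine genes are annotated there as microRNA genes under their own names, whereas the 3 genes first printed overlap no annotated transcript.

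Total counts per library lay between 502251 and 5380775, and the members held between 6336 and 97713 of them. The lowest total belonged to control library 24 of dHC. The members made up 1.76% ± 0.288 of all counts (SD, n = 26, range 1.12% to 2.26%) and 45.4% ± 3.58 of whole tRNA counts, the rest being glycine and glutamate. The neuronal miRNAs mir-124, mir-9, mir-128 and mir-132 summed to 162740 to 234214 CPM per library, where CPM are counts scaled to the same library total. The oligodendrocyte miRNAs mir-219a and mir-338 summed to 4274 to 6719 CPM in dHC libraries and to 3111 to 4491 CPM in vHC libraries, and the muscle miRNAs mir-1a, mir-133a and mir-206 to 749.9 to 1430 CPM against 662.8 to 1103 CPM. Sums of the 6 choroid plexus, 3 erythroid and 4 immune cell miRNAs overlapped between all groups, and no list was at 0 in any library. Levels below are CPM with library sizes scaled by TMM. In such bulk tissue, fewer cells of a type and less RNA per cell cannot be told apart.

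Lysine and aspartate tRNA entries were the most abundant members. The lysine entries summed to 3879 ± 736.4 CPM (SD, n = 26), which was 22.1% of all member counts, and aspartate to 2945 ± 841.8 CPM, or 16.7%. Valine followed with 1951 CPM, leucine with 1514 CPM and alanine with 1093 CPM. Lysine was above aspartate in 24 of 26 libraries, aspartate above valine in 23, valine above leucine in 21 and leucine above alanine in 24, so this order held in most libraries but not in all.

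From glutamine downwards the order was less clear. Glutamine at 816.3 CPM was above methionine at 799 CPM in 15 of 26 libraries. Arginine had 729.3 CPM, asparagine 611.7 CPM, tyrosine 602.1 CPM and serine 545.1 CPM. Asparagine exceeded tyrosine in 15 libraries and tyrosine exceeded serine in 14, so these neighbours did not differ beyond the spread between libraries. Threonine came to 424.1 CPM, isoleucine to 331.5 CPM, proline to 330.7 CPM, cysteine to 293.7 CPM and histidine to 283.7 CPM. Here isoleucine exceeded proline in 15 libraries and cysteine exceeded histidine in 13. Phenylalanine at 216 CPM was above tryptophan in 26 of 26 libraries, and tryptophan had 107.8 CPM. SeC, whose tRNA inserts selenocysteine at recoded stop codons, was the lowest amino acid with 42.5 CPM. Undet and Sup-TTA, which stand for no amino acid, had 1.69 and 1.36 CPM.

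**Figure D1:**
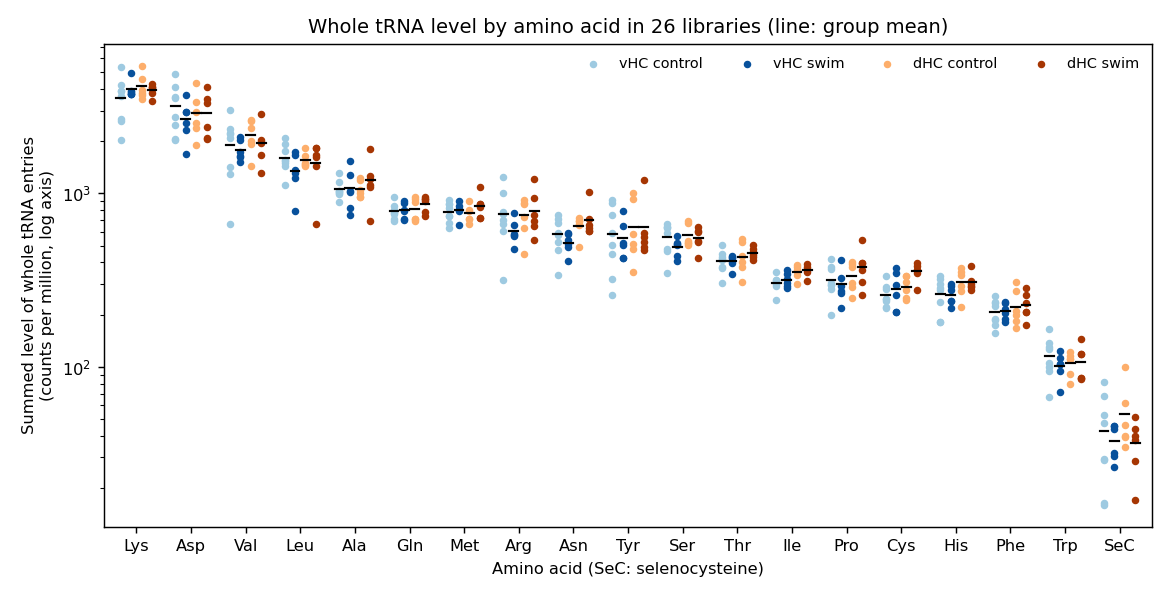
Summed level of whole tRNA entries for each of 19 amino acids (x axis) in CPM on a log axis, 1 point per library, coloured by region and stress, with a line at each group mean. Lysine and aspartate lead in all 4 groups, SeC is lowest, and the points of the 4 groups overlap for every amino acid other than asparagine, where dHC swim lies above vHC swim.

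The spread between libraries differed among amino acids. The highest library was 1.37-fold above the lowest for glutamine and 1.62-fold for isoleucine, but 4.55-fold for valine, 4.601-fold for tyrosine and 6.26-fold for SeC. Swim library 6 of dHC stood apart in leucine, which reached 669.8 CPM there against 1439 to 1830 CPM in the other 5 dHC swim libraries. The same library had more asparagine, with 1025 CPM against 603.1 to 707.8 CPM.

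Within an amino acid, 1 isoacceptor usually led. The anticodon CTT held 66.2% of lysine CPM, CAC 56.2% of valine, TGC 68.1% of alanine, CTG 79.5% of glutamine, AAT 82.0% of isoleucine and CCT 69.05% of arginine. Leucine was spread over 5 anticodons, with CAG at 45.9%, and proline had AGG at 40.9% and TGG at 39.1%. Per 100 bases of the median RefSeq gene, a length that includes the intron of Tyr-GTA, Leu-CAA, Ile-TAT and Arg-TCT, Asp-GTC had 4091 ± 1169 CPM (SD, n = 26) and Lys-CTT 3519 ± 836.3 CPM.

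RefSeq lists 359 tRNA genes with the members' anticodons on GRCm38.p6, for 42 of the 50 names. Across these 42 names, level per 100 bases and gene number had a Spearman correlation of 0.66, given as a description because names share libraries and isoacceptors share reads. Cys-GCA had the most genes, with 56 listed and 407.6 CPM per 100 bases, while Lys-TTT had 2 genes listed and 1795 CPM per 100 bases.

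The 10 most abundant members held a median of 66.1% of member counts per library (range 59.5% to 71.4%). Lys-CTT matched came first, with a lowest, median and highest level of 1247, 2195 and 3854 CPM in vHC controls and 2265, 2588 and 3401 CPM in vHC swim libraries. Its levels in dHC were 2124, 2488 and 3964 CPM in controls and 2200, 2690 and 2872 CPM after swim. All 4 groups overlapped, and vHC controls reached lowest.

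The unmatched entry of Asp-GTC was second. In vHC it had 1178, 2205 and 4011 CPM (lowest, median, highest) in controls and 1039, 1860 and 2729 CPM after swim. In dHC the values were 1012, 1920 and 3393 CPM in controls and 1139, 1850 and 2724 CPM after swim. These ranges overlapped almost wholly. Asp-GTC matched, the counterpart with a genome match, had less, with 910.9 ± 157.6 CPM (SD, n = 26).

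The other 7 of the 10 most abundant were all matched. Lys-TTT had 1310 ± 238.9 CPM, Val-CAC 1093 ± 299.8 CPM, Met-CAT 784.4 ± 98.3 CPM and Ala-TGC 723 ± 206.7 CPM (SD, n = 26). The table had 1 name for methionine, so initiator and elongator tRNA could not be separated. Leu-CAG had 675.7 ± 169.2 CPM, Gln-CTG 634.2 ± 69.9 CPM and Asn-GTT 603.5 ± 130.3 CPM.

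Counts of a whole entry that came from its ends could be read from the end entries of the same name, none of which exceeded its whole entry. Over the 50 matched members, 24.2% of counts were also listed under the 5′ end, 0.355% under the 3′ end and 1.94% under the CCA end, and 73.5% under no end. The 5′ share was above 10% in 29 of 50 matched members. It reached 67.8% for Val-TAC, 45.4% for Lys-CTT, 43.6% for Val-AAC and 42.9% for Val-CAC, but only 0.485% for Gln-CTG and 2.13% for Met-CAT. Asn-GTT differed from the other matched members in that 25.4% of its counts were under the CCA end (20.7% to 33.9% per library), the only matched member above 10%. Among unmatched members 0.0232% of counts were under a 5′ end and 0.991% under a CCA end, so 99.0% were under no end entry.

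**Figure D2:**
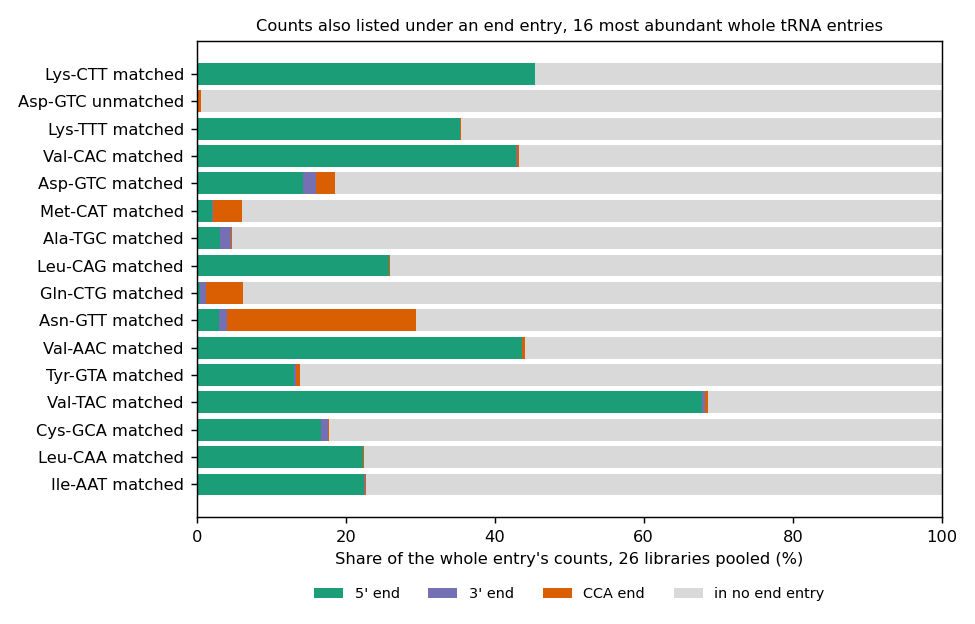
Share of each whole entry's counts (x axis, percent, 26 libraries pooled) that is also listed under the 5′ end, 3′ end or CCA end entry of the same name, for the 16 most abundant members (y axis). Lysine and valine entries hold large 5′ shares, Asn-GTT has a CCA share of 25.4%, and Asp-GTC unmatched is almost wholly outside the end entries.

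Counts without a genome match were concentrated in few tRNAs. They were 14.9% ± 3.33 of member counts per library (SD, n = 26, range 9.55% to 22.01%), and 76.2% of them belonged to Asp-GTC. With Arg-CCT, Tyr-GTA, His-GTG and Trp-CCA added, 5 entries held 90.9%. Of all Asp-GTC counts, 68.4% were unmatched (52.1% to 82.5% per library). The unmatched share was 46.1% for Arg-CCT (5.98% to 67.5%), 30.3% for Trp-CCA (22.9% to 41.9%), 15.9% for His-GTG and 11.5% for Tyr-GTA. Above 10% stood 10 of the 50 names, and 24 were under 1%. Lys-CTT was at 0.00366%, Lys-TTT at 0.0707% and Phe-GAA had no unmatched entry.

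The tRNAs Asp-GTC, His-GTG, Tyr-GTA and Asn-GTT are those whose first anticodon base can carry queuosine, a modified guanine. Among them the unmatched share was 68.4% for Asp-GTC, 15.9% for His-GTG, 11.5% for Tyr-GTA and 1.36% for Asn-GTT, so the group did not share a level. The 4 intron-bearing names had 11.5% for Tyr-GTA, 8.03% for Arg-TCT, 3.84% for Leu-CAA and 0.909% for Ile-TAT.

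The study sequenced small RNAs 45 mins after stress to ask whether miRNAs could account for the decrease of many mRNAs. It found neither a significant miRNA change nor an enrichment of miRNA targets, and its text reports no result for tRNA entries. No member passed the test for swim. Low entries were removed by expression, which left 69 members (44 matched, 25 unmatched) among 551 entries tested. The 22 members not tested held 0.120% of member counts. By edgeR (quasi-likelihood, p-values adjusted after Benjamini and Hochberg), 0 of 69 members passed an adjusted p of 0.05 for stress and interaction together, and 0 passed for stress in vHC, stress in dHC or the interaction. The background was 0% of all entries in each of these 4 tests. At an unadjusted p under 0.05 there were 1, 3, 3 and 2 members in that order, against 3.63%, 6.53%, 3.99% and 3.45% of all entries. DESeq2 also called 0 members in all 4 tests, with 1, 3, 2 and 2 at an unadjusted p under 0.05.

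The precision bounded changes with swim to within 2-fold for most members, each taken alone. The median standard error of a member's log2 fold change was 0.14 in vHC and 0.15 in dHC. An interval of 2 standard errors lay within 2-fold in both directions for 67 of 69 members in each region, and within 1.5-fold for 49 members in vHC and 54 in dHC. Among the 10 most abundant members, log2 fold changes with swim lay between -0.30 for Leu-CAG and 0.27 for Lys-CTT in vHC, and between -0.12 for Val-CAC and 0.16 for Met-CAT in dHC.

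Among members, the smallest p for stress belonged to the unmatched entry of Arg-CCG, an arginine isoacceptor at 7.94 ± 4.799 CPM. In vHC its lowest, median and highest levels were 1.07, 9.01 and 23.95 CPM in controls and 3.22, 4.61 and 7.52 CPM after swim. In dHC they were 2.27, 5.67 and 11.5 CPM in controls and 4.49, 8.92 and 17.1 CPM after swim. The groups overlapped in both regions, and the highest value was vHC control library 13. The log2 fold change was -0.81 (SE 0.31) in vHC and 0.76 (SE 0.31) in dHC, with a difference of 1.57 (SE 0.43). In edgeR the adjusted p was 0.795 for both coefficients together and 0.501 for the interaction, so the difference between regions did not pass the test. Without dHC swim library 16 the value in dHC was 0.44.

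The next 4 by p were Pro-GGG matched, Tyr-GTA unmatched, Cys-GCA matched and Val-TAC unmatched, with unadjusted p of 0.0598, 0.0655, 0.0706 and 0.0823 and an adjusted p of 0.795 each in edgeR. Pro-GGG, a name with no RefSeq gene, had a median of 2.72 CPM in vHC controls and 3.38 CPM after swim. Cys-GCA had a median of 244.8 and 278 CPM in vHC and 290.5 and 361.4 CPM in dHC, for control and swim in turn. Tyr-GTA unmatched ranged from 16.6 to 236.4 CPM within vHC controls alone.

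Counted by group, no list of members passed. The 7 tested intron-bearing, 8 queuosine, 13 A34 (anticodons that begin with A, read as inosine), 14 basic, 2 acidic, 32 hydrophobic and 21 polar amino acid entries had 0 calls in each stress test. The median log2 fold change in vHC was -0.02 for matched and -0.22 for unmatched members, beside -0.0024 for all 551 entries. In vHC, 23 of 25 unmatched members had a negative value, beside 280 of all 551 entries. In dHC 10 of 25 did, with a median of 0.03, beside 286 of all 551 entries. Members share libraries, and these medians and counts carry no test.

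Shares of counts gave another view of the same libraries. The unmatched share of member counts in vHC had a lowest, median and highest value of 12.4%, 17.6% and 22.01% in the 8 controls and 10.3%, 14.1% and 17.8% in the 6 swim libraries. The difference was -2.99 percentage points, with p = 0.0969 in a two-sided exact permutation test and 0.222 after Benjamini-Hochberg adjustment over 7 comparisons. Within blocks 1, 2 and 3 the difference was -3.68, -2.98 and -4.62 points, and exchanging labels within blocks gave an exact permutation p of 0.0741. With Asp-GTC unmatched left out of the counts, an alternative chosen after seeing the data, the vHC difference was -1.19 points. In dHC the share was 9.55%, 14.6% and 19.1% in controls and 10.6%, 13.9% and 16.6% after swim, a difference of -0.43 points (exact permutation p = 0.814) that was positive within blocks 1 and 2 and negative within block 3. Neither difference passed.

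The share of all counts held by the members did not move detectably either. In vHC it was 1.74% ± 0.357 in controls (SD, n = 8) and 1.65% ± 0.278 after swim (n = 6), with an exact permutation p of 0.585. In dHC it was 1.799% ± 0.273 in controls and 1.85% ± 0.236 after swim (n = 6 each, exact permutation p = 0.630). In both regions the sign of the difference was not the same in all 3 blocks.

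Region was compared as dHC against vHC, once in control mice and once after swim, with block in the fit. In control mice 1 of 69 members passed in edgeR (1.45%), below the background of 20.5% of all entries, and 6 had an unadjusted p under 0.05 against 33% of all entries. After swim 1 of 69 passed, against a background of 15.2%, and 6 again had an unadjusted p under 0.05, against 27.9% of all entries. These 2 comparisons share no library but use 1 fit. In control mice and after swim, the median sums of oligodendrocyte, muscle, immune cell and choroid plexus miRNAs were higher in dHC than in vHC. Those of neuronal and erythroid miRNAs were lower. The ranges of the 2 regions overlapped for every list, and the part of these cell types in the region differences was not tested. The members' share of counts differed by less than the spread between libraries, by 0.06 percentage points in control mice (exact permutation p = 0.747) and by 0.21 after swim (exact permutation p = 0.212).

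The member called in control mice was Thr-CGT matched, a threonine isoacceptor. It had 49.4, 66.3 and 104.1 CPM (lowest, median, highest) in vHC controls and 40.9, 81.1 and 129.3 CPM in dHC controls. The groups overlapped, with 2 of 6 dHC libraries above every vHC library. The log2 fold change was 0.42 (SE 0.14, edgeR adjusted p = 0.0374). After swim the same entry had 59.7, 73.8 and 79.3 CPM in vHC and 77.2, 93.3 and 127.6 CPM in dHC, with 5 of 6 dHC libraries above every vHC library. There its log2 fold change was 0.39 (SE 0.15, edgeR adjusted p = 0.0726), which did not pass. The ratio of means was above 1 within each block, at 1.52, 1.16 and 1.22 in control mice and 1.56, 1.11 and 1.34 after swim. Leaving out any of 9 libraries took the call away, with an adjusted p of up to 0.131. These were vHC control 1, 9, 17 and 25, dHC control 8, 14 and 18, vHC swim 29 and dHC swim 22.

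After swim the member called was Asn-GTT matched, the entry with the large CCA share. Its levels were 402.3, 519.7 and 584 CPM in vHC and 596.3, 629.8 and 1013 CPM in dHC, so all 6 dHC libraries were above all 6 vHC libraries. The log2 fold change was 0.42 (SE 0.14, edgeR adjusted p = 0.0471). In control mice it had 332.8, 575.2 and 737.1 CPM in vHC and 485.5, 668.7 and 710.3 CPM in dHC, with a log2 fold change of 0.24 (SE 0.14, edgeR adjusted p = 0.212), which was 0.16 without vHC control library 17. Within blocks the ratio of means was 1.57, 1.12 and 1.41 after swim and 0.995, 1.45 and 1.26 in control mice. The highest value was dHC swim library 6, and without it the log2 fold change was 0.33 (edgeR adjusted p = 0.124). The adjusted p of this entry lay between 0.0183 and 0.137 over the 26 fits that left out 1 library, and it passed in 7 of them, those without vHC control 1 or 17, vHC swim 19 or 21, dHC control 26, or dHC swim 16 or 30.

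With 2 surrogate variables in place of block, the log2 fold change of Thr-CGT in control mice was -0.33. That of Asn-GTT after swim was -0.0097, and the second of these variables follows region. Neither entry was called with library totals alone, with no filter on low counts, or with adjustment over tRNA and rRNA entries. Each lost its call or changed direction in 7 of 11 alternative settings.

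No other member passed. In control mice the next were Trp-CCA unmatched with a log2 fold change of -0.43 (SE 0.17), Ala-AGC unmatched with -0.42 (SE 0.18), Ile-AAT matched with 0.24 (SE 0.10) and Thr-AGT unmatched with 0.53 (SE 0.24), at adjusted p of 0.0762 to 0.108 in edgeR. Without dHC control library 8 the value of Thr-AGT unmatched was 0.25. After swim they were Cys-GCA matched with 0.35 (SE 0.12), Arg-CCT matched with 0.33 (SE 0.13) and Asp-GTC matched with 0.30 (SE 0.13), at adjusted p of 0.0527 to 0.133 in edgeR. Without dHC swim library 22 the value of Asp-GTC matched was 0.19. Ile-AAT had 186.5 to 290.2 CPM in vHC controls and 235.4 to 321.9 CPM in dHC controls. Cys-GCA had 205.1 to 372.9 CPM in vHC swim libraries and 277.1 to 395.5 CPM in dHC swim libraries.

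Of 25 unmatched members, 17 had a negative log2 fold change in control mice, with a median of -0.34, beside 248 of all 551 entries. Of 44 matched members 34 were positive there, with a median of 0.11, beside 303 of all entries. Members share libraries, and these counts carry no test. After swim the medians were 0.09 and 0.16, and the median of all entries was 0.05 in control mice and 0.02 after swim. The unmatched share of member counts in dHC minus that in vHC was -2.98 points in control mice (exact permutation p = 0.127), and -4.70, -3.94 and -2.59 points within blocks 1, 2 and 3. Without Asp-GTC unmatched in the counts it was -0.88 points. After swim it was -0.42 points (exact permutation p = 0.812). Neither share difference passed. The swim comparison in vHC and the region comparison in control mice both use the 8 vHC control libraries, so they are not separate observations. The mean unmatched share was 17.1% in vHC controls, 14.1% in vHC swim, 14.1% in dHC control and 13.7% in dHC swim libraries.

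**Figure D3:**
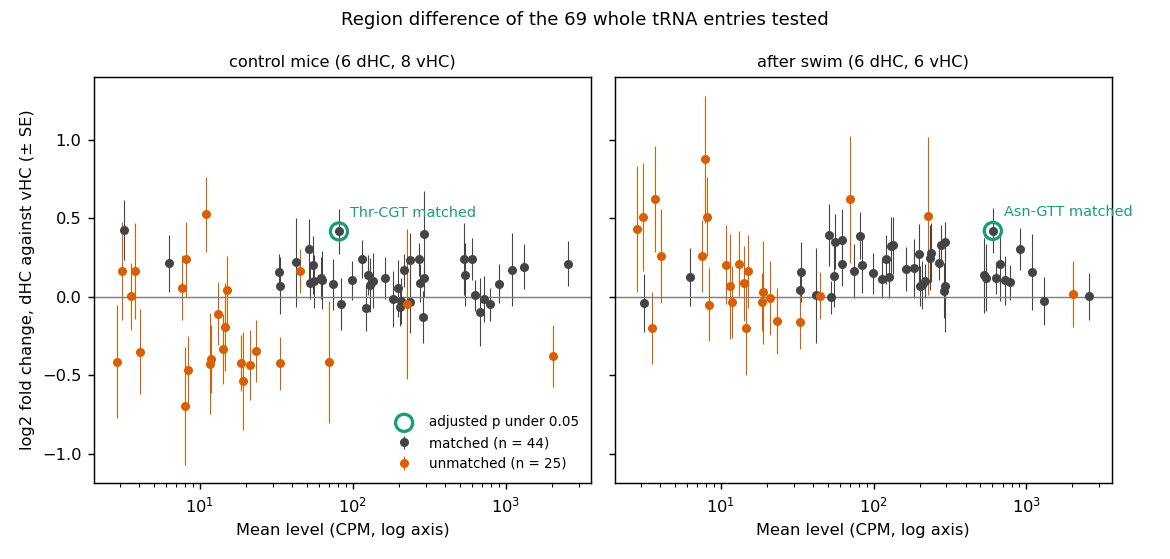
log2 fold change of dHC against vHC (y axis, bars ± 1 SE) against mean level in CPM on a log axis for the 69 members tested, in control mice (left) and after swim (right), with matched members in grey and unmatched in orange. Rings mark the 1 member called in each comparison, Thr-CGT and Asn-GTT, and most unmatched members lie below 0 in control mice.

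More members were called for block than for region or stress. Block was called for 25 of 69 members in edgeR (36.2%), below the background of 51.4% of all entries. Block 2 against 1 had 25 calls, against a background of 49% of all entries. Of these, 14 members were higher (background 23.2%) and 11 lower (background 25.8%). Block 3 against 1 had 22 calls, against a background of 45.6%, with 10 members higher (background 20.1%) and 12 lower (background 25.4%). Block 3 against 2 had 0 members called (background 0%), with 3 at an unadjusted p under 0.05 in edgeR (background 9.62%), and 0 members with 2 unadjusted in DESeq2. Both contrasts with calls share the 10 libraries of block 1.

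Among members, the smallest p for block were those of the 2 unmatched glutamine entries. Gln-TTG unmatched had 0.637, 1.93 and 2.88 CPM (lowest, median, highest) in block 1, 2.95, 4.17 and 5.32 CPM in block 2 and 2.65, 4.62 and 6.72 CPM in block 3. Of the 16 libraries of blocks 2 and 3, 15 were above every library of block 1. Its log2 fold change against block 1 was 1.03 (SE 0.20) for block 2 and 1.27 (SE 0.20) for block 3. Gln-CTG unmatched had 5.21, 9.11 and 14.6 CPM in block 1, 13.2, 18.4 and 23.1 CPM in block 2 and 7.81, 19.3 and 28.98 CPM in block 3, with 13 of 16 libraries above block 1. Its log2 fold changes were 1.01 (SE 0.20) and 1.03 (SE 0.19). The adjusted p in edgeR was 1.3e-05 for Gln-TTG and 7.59e-05 for Gln-CTG.

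Asp-GTC unmatched, the largest unmatched entry, moved in the same direction. It had 1012, 1225 and 2530 CPM in block 1, 1781, 2299 and 3237 CPM in block 2 and 1287, 2376 and 4011 CPM in block 3, with 7 of 16 libraries above block 1. The log2 fold changes were 0.83 (SE 0.17) and 0.90 (SE 0.17). Asp-GTC matched did not pass, with 918.7 ± 136.1 CPM (SD, n = 10) in block 1, 950.8 ± 216.3 CPM (n = 8) in block 2 and 861.2 ± 115.7 CPM (n = 8) in block 3.

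Among matched members, Ala-TGC was higher and Phe-GAA lower outside block 1. Ala-TGC had 374.5, 561.5 and 718.4 CPM in block 1, 637.1, 871.3 and 1309 CPM in block 2 and 650.5, 759.8 and 901.1 CPM in block 3, with log2 fold changes of 0.74 (SE 0.13) and 0.49 (SE 0.13). Phe-GAA had 203, 247.2 and 306.3 CPM in block 1, 157.1, 201.8 and 234.3 CPM in block 2 and 174.6, 186.6 and 232.2 CPM in block 3, with -0.39 (SE 0.09) and -0.40 (SE 0.09). For Phe-GAA, 10 of the 16 libraries of blocks 2 and 3 were below every library of block 1. With library sizes over whole tRNA entries alone, the block 3 value of Ala-TGC was 0.26 (edgeR adjusted p = 0.27), so that call was lost, and that of Phe-GAA was -0.63.

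**Figure D4:**
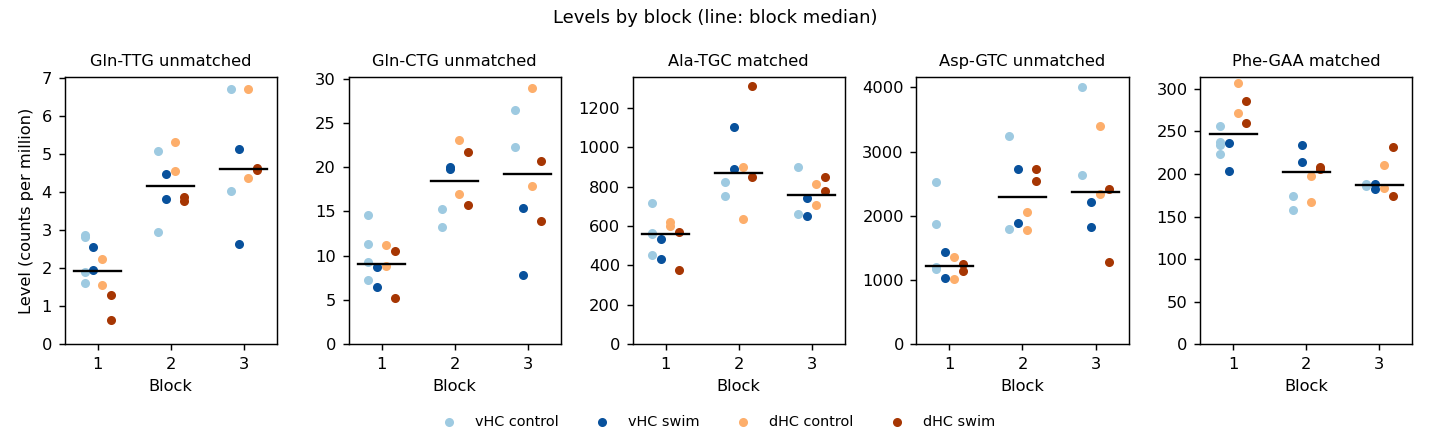
Level in CPM (y axis, from 0) of the 5 members with the smallest p for block, by block (x axis), 1 point per library coloured by group, with a line at the block median. The 2 glutamine entries, Ala-TGC and Asp-GTC unmatched lie lower in block 1 than in blocks 2 and 3, and Phe-GAA lies higher.

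By amino acid, 4 of 6 alanine and 3 of 8 leucine entries were called higher in block 2 than in block 1, and 3 of 10 arginine, 3 of 5 threonine and 2 of 6 serine entries lower, beside 23.2% higher and 25.8% lower over all entries. In block 3 against 1, 1 alanine and 0 leucine entries were called higher, 3 serine entries and 2 of 2 tryptophan entries lower, 3 arginine entries lower and 1 higher, and 2 threonine entries lower and 1 higher, beside 20.1% higher and 25.4% lower over all entries. Of 44 matched members 5 were called higher and 10 lower in each of these contrasts. Of 25 unmatched members 9 were called higher and 1 lower in block 2, and 5 higher and 2 lower in block 3.

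The unmatched share of member counts followed block. It was 12.3% ± 2.62 in block 1 (SD, n = 10, range 9.55% to 17.6%), 16.3% ± 2.07 in block 2 (n = 8, 13.4% to 19.6%) and 16.7% ± 3.35 in block 3 (n = 8, 10.6% to 22.01%). The difference from block 1 was 3.97 percentage points for block 2 (exact permutation p = 0.00443, adjusted 0.0278) and 4.37 points for block 3 (exact permutation p = 0.00793, adjusted 0.0278). Blocks 3 and 2 differed by 0.40 points (exact permutation p = 0.783). The call for block 3 was lost without vHC control 25 or 31 or dHC control 26, with a difference of 3.61, 4.13 and 4.03 points and an adjusted exact permutation p of 0.0642, 0.0504 and 0.0533. With Asp-GTC unmatched left out of the counts, an alternative chosen after seeing the data, the differences turned to -0.79 and -0.62 points and neither passed.

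**Figure D5:**
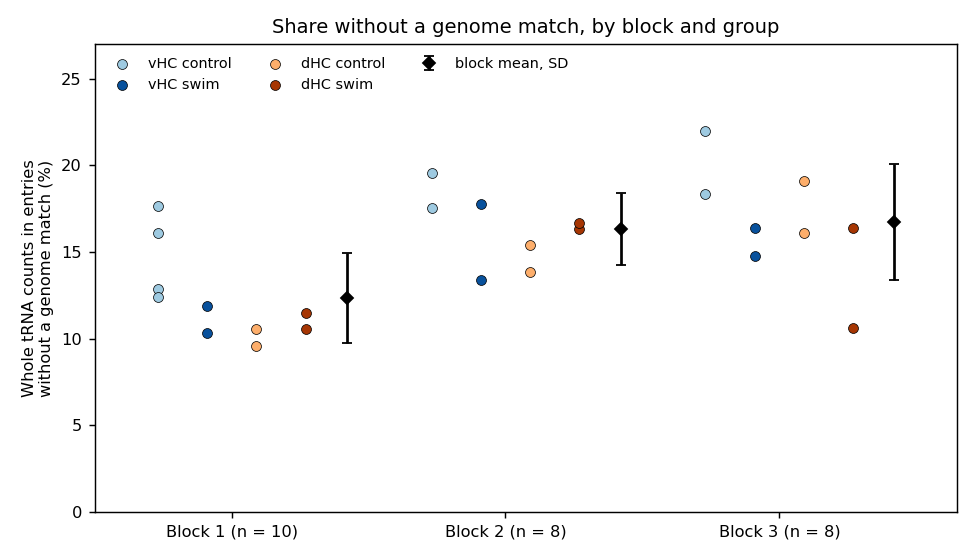
Share of member counts in entries without a genome match (y axis, percent, from 0) by block (x axis), 1 point per library coloured by group, with block means and SD as diamonds. Blocks 2 and 3 lie above block 1 on average, at 16.3% and 16.7% against 12.3%, and within each block the vHC swim libraries average below the vHC controls.

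One member name is tied to a miRNA entry of the same table. The mature miR-1983 of RefSeq, chr13:21896930-21896950 on the minus strand (GRCm38.p6), begins inside the Ile-TAT gene printed above. Of its 21 bases, 13 are the last bases of that gene and 8 lie past its 3′ end. The mature sequence, with the seed (bases 2 to 8) in capitals, and the hairpin, with the mature part in capitals, are given because they show this overlap.
mmu-miR-1983: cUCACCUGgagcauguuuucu
Mir1983 hairpin: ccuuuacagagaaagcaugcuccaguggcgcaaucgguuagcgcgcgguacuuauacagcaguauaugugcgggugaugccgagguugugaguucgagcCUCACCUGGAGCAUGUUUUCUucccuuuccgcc

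The miRNA entry mir-1983 had 912.8 ± 186.7 CPM (SD, n = 26), while all Ile-TAT entries together had 53.3 ± 4.69 CPM. The miRNA entry was 11.4-fold to 23.6-fold above Ile-TAT in single libraries, with a median of 16.9-fold. Its means were 849.9 CPM in vHC controls, 944.9 CPM in vHC swim, 986.5 CPM in dHC controls and 890.8 CPM in dHC swim libraries. The hairpin spans the whole Ile-TAT gene, and how reads of that gene were divided between miRNA and tRNA entries was not tested. The isoleucine sum and the shares of its isoacceptors carry this limit.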

How the data were processed

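Small RNA libraries were made from Trizol-extracted RNA with a kit that adds molecular tags. The authors trimmed reads with cutadapt, collapsed reads of identical sequence and tag, and quantified them with Sports (GRCm38 in the submitters' processing notes). The deposited table holds expected counts per entry (29.5% of values not whole), which were rounded here. miRNA, whole tRNA and rRNA entries entered the fit, and tRNA end entries did not, since their counts are part of the whole entry. After filterByExpr (minimum count 10, minimum total 15) and TMM scaling, edgeR 4.0.16 quasi-likelihood tests were run in R 4.3.3 with Benjamini-Hochberg adjustment over 551 entries. Stress was tested with region, stress, their interaction and 2 surrogate variables (sva 3.50.0), region and block with block in place of these variables. Of the surrogate variables, block accounted for 74.5% of the first and region for 84.5% of the second. DESeq2 1.42.0, other scalings, filters and models, and each library left out were alternatives. Shares were compared by exact permutation in Python 3.11.15 with numpy 2.4.6, and the Spearman correlation came from scipy 1.17.1. The edgeR fits were run on simulated counts, and the other steps were not.

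The text names the 10 members of highest level, the 5 of lowest p in each of stress, region in control mice, region after swim and block, and the 5 unmatched members of highest level. The members and lists were chosen with earlier results of these data known. Within groups no 2 libraries were identical or within counting noise. Intervals and shares cover no error from amplification or division of reads. Library numbers missing from the series were not analysed here.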

Additional observations from a re-analysis of the deposited data

Results flagged for a closer look

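Dixon's 95% limit was applied to 188 combinations of a level or share with a group of libraries. In 16 of them (8.51%), the highest or lowest library stood further from the rest than this limit allows. The highest library stood out in 11 of these and the lowest in 5. A member and the sum of its amino acid share counts, and many members were named for a low p. The 8.51% therefore cannot be set against the rate that chance gives.

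Swim library 6 of dHC was found 4 times. Its summed leucine level was 669.8 CPM against 1439 to 1830 CPM in the other dHC swim libraries, its asparagine sum 1025 CPM against 603.1 to 707.8 CPM, and Asn-GTT matched was at 1013 CPM against 596.3 to 697.6 CPM. Members made up 1.41% of its counts, against 1.82% to 2.05% in the others.

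Swim library 16 of dHC had the highest tyrosine sum, 1189 CPM against 472 to 593.4 CPM, the highest histidine sum, 383.8 CPM against 275.7 to 310.4 CPM, and the highest Lys-TTT matched level, 1681 CPM against 1182 to 1339 CPM. Swim library 21 of vHC had the highest lysine sum, 4930 CPM against 3731 to 3886 CPM. Its Lys-CTT matched level was 3401 CPM against 2265 to 2655 CPM, and its Arg-CCT unmatched level 225.6 CPM against 124.8 to 156.4 CPM.

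Control library 24 of dHC, the library with the fewest counts, had the lowest asparagine sum, 488.1 CPM against 657 to 721.4 CPM. It also had the lowest Asn-GTT matched level, 485.5 CPM against 650.8 to 710.3 CPM, and the lowest member share, 1.26% against 1.77% to 1.99%. Arg-CCG unmatched reached 23.95 CPM in vHC control library 13, against 1.07 to 11.7 CPM. Tyr-GTA unmatched reached 236.4 CPM in vHC control library 7, against 16.6 to 93.4 CPM, and Ala-AGC unmatched 31.99 CPM in dHC swim library 22, against 13.2 to 19.997 CPM. No cause was tested for any of these libraries.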

How the results depend on the processing

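No paired analysis was possible because the labels name no mouse and no number is shared between groups. Each dHC library carries the number that follows a vHC library of the same stress and block, and whether such neighbours came from 1 mouse is not stated, so they were not treated as pairs. The count of members called for stress was 0 in every alternative run. For region in control mice, 1 call became 0 with library totals alone, library sizes over whole tRNA entries, adjustment over tRNA and rRNA entries, counts summed over genome match, or no block and no surrogate variables, 2 with DESeq2, and 26 with surrogate variables in place of block. For region after swim, 1 call became 3 with TMMwsp, DESeq2 or no filter. It became 0 with library totals alone, library sizes over whole tRNA entries, tRNA ends in the fit, adjustment over tRNA and rRNA entries, or no block and no surrogate variables, and 15 with surrogate variables in place of block. Leaving out 1 library gave 0 to 2 and 0 to 3 calls. Summing over genome match gave 14 calls for block, 12 for block 2 against 1 and 13 for block 3 against 1, with fewer entries tested. The shares of all entries called under these alternatives are not given here. The counts therefore show how far calls depend on the fit and are not read as results about the members. Surrogate variables in place of block, the second of which follows region, turned log2 fold changes to -0.33 (Thr-CGT), -0.29 (Ile-AAT), -0.48 (Thr-AGT unmatched) and -0.26 (Asn-GTT) in control mice, and to -0.0097 (Asn-GTT), -0.24 (Thr-CGT) and -0.32 (Asp-GTC matched) after swim.

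Without Asp-GTC unmatched, an alternative chosen after seeing the data, the unmatched share differed by -1.19 points for swim in vHC, -0.88 for region in control mice, 0.118 for swim in dHC, 0.429 for region after swim, -0.788 for block 2 against 1 and -0.621 for block 3 against 1. Leaving out 1 library moved the unmatched share difference between -1.34 and 0.572 for swim in dHC, -1.17 and 0.325 for region after swim, 3.61 and 5.24 for block 3 against 1, and -0.358 and 1.27 for block 3 against 2. The member share difference moved between -0.0520 and 0.144 for swim in dHC, -0.0311 and 0.165 for region in control mice, -0.0107 and 0.119 for block 2 against 1, and -0.0391 and 0.102 for block 3 against 2. Fold changes were refitted without each library for Arg-CCG unmatched in the stress tests and for the named members in region and block, and none of these changed direction. The depth of 6336 member counts in the shallowest library limits entries of a few CPM.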

Other observations

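The swim library 6 of dHC, which stood apart in leucine and asparagine, was also low in other amino acids. Relative to the median of the other 5 dHC swim libraries, its level was 0.403-fold for leucine, 0.426-fold for SeC, 0.576-fold for alanine and 0.667-fold for valine, and 1.63-fold for asparagine. Its methionine and cysteine levels were 1.04-fold and 0.998-fold.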
